A study of Mus musculus with 18 samples.

Results

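The genes described here are 7 alpha cell genes, taken by name from a table of 54186 gene symbols. They are Gcg, which encodes glucagon, the transcription factor genes Irx1, Irx2 and Pou3f4, the transthyretin gene Ttr, the vitamin D binding protein gene Gc, and the amino acid transporter gene Slc38a5. The names were fixed without a threshold on any value, but with earlier results of these data known. All 7 were in the table, and all 7 passed the filter on low counts that left 20244 genes for testing. The counts came from bulk RNA sequencing of pancreatic islets of 18 mice on the FVB background, all aged 6 weeks, with about 165 islets and 1 library for each mouse.

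The study compared islets that make extra islet amyloid polypeptide, a peptide that beta cells release with insulin, with islets that do not. The human peptide forms aggregates and the rodent peptide does not. There were 6 hIAPP mice with the human transgene, 6 rIAPP mice with the rodent transgene and 6 WT mice with no transgene. Both transgenes were expressed under the insulin II promoter, which is active in beta cells, so the alpha cells of the transgenic mice were not the cells that the promoter targets. The host of both transgenes and of the WT mice was the same strain, and all mice kept their own Iapp gene.

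Alpha cells secrete glucagon, which raises the output of glucose by the liver and also drives the breakdown of amino acids there. Irx1, Irx2 and Pou3f4 mark the alpha lineage among the endocrine cells of the islet, while Ttr and Gc are secreted carrier proteins that the alpha cell shares with the liver. Slc38a5 moves glutamine and other neutral amino acids into the cell, and in mice it is known for its induction in alpha cells that divide when glucagon signalling is blocked and blood amino acids rise. It is also known from the exocrine acinar cells of the pancreas.

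Library totals were 109.6 to 142 M counts (M, mega) for hIAPP, 128 to 158 M for rIAPP and 144 to 166 M for WT. The mouse Iapp gene had 20876 to 30706 CPM (counts per mega-count of the scaled library) in hIAPP islets and 32830 to 43833 CPM in rIAPP islets, against 25591 to 40079 CPM in WT islets. Whether reads of either transgene were counted there is not given in the sources used here. The libraries also differed in other cell types. The 12 acinar markers summed to 0.153 to 1.09% of counts in hIAPP libraries and 0.288 to 1.15% in rIAPP libraries. In WT libraries they summed to 0.0604 to 0.243%. Every rIAPP share lay above every WT share, so an acinar covariate and genotype cannot be fully told apart in that comparison. The highest shares were in hIAPP 5 (0.671%) and hIAPP 6 (1.09%) and in rIAPP 1 (0.907%) and rIAPP 2 (1.15%), and results that change without these pairs of libraries are given both ways. The 12 beta cell markers summed to 7.79 to 12.4% of counts in hIAPP, 7.82 to 10.6% in rIAPP and 12.3 to 14.5% in WT.

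The alpha cell label fitted the levels. Per kilobase of exon, WT islets held 16806 ± 2625 CPM of Gcg (mean ± SD, n = 6), 529 ± 73.0 of Ttr, 35.6 ± 2.16 of Gc, 3.72 ± 0.444 of Irx2, 3.27 ± 0.437 of Irx1, 2.55 ± 0.358 of Slc38a5 and 0.560 ± 0.0941 of Pou3f4. Gcg, Ttr and Gc were separated from each other in every library. Irx2 (3.01 to 4.15), Irx1 (2.46 to 3.67) and Slc38a5 (1.97 to 2.95) overlapped with their neighbours in that order, and Pou3f4 (0.468 to 0.706) lay below all of them. In hIAPP islets the order of the 7 genes was that of WT. In rIAPP islets Slc38a5 moved to place 4, at 15.3 ± 2.67 CPM per kilobase against 3.38 ± 0.390 for Irx2 and 3.24 ± 0.488 for Irx1, and Gc stood at 223 ± 20.8.

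In rIAPP islets 2 alpha cell genes rose strongly over WT while the hormone gene itself did not pass the test. Gc rose 6.26-fold and Slc38a5 rose 5.98-fold, Ttr fell, and Gcg, Irx1, Irx2 and Pou3f4 did not pass. That is 3 of 7 genes called by edgeR at an adjusted p under 0.05, where 26.8% of all genes tested were called in this comparison. The median log2 fold change of the 7 was -0.01, as was that of all genes.

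Gc is the main carrier of vitamin D metabolites in blood and binds actin released from cells. Its lowest, median and highest levels were 367, 408 and 472 CPM in rIAPP islets, against 59.5, 65.9 and 71.3 CPM in WT islets. Every rIAPP library lay far above every WT library. The log2 fold change was 2.65 ± 0.08 (SE; 6.26-fold; edgeR adjusted p = 2.59e-15), with rank 3 of 20244 genes by p.

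Slc38a5 had 27.3, 33.7 and 41.3 CPM as its lowest, median and highest levels in rIAPP islets, against 4.42, 5.98 and 6.62 CPM in WT islets. The groups did not overlap here either. The log2 fold change was 2.58 ± 0.13 (SE; 5.98-fold; edgeR adjusted p = 9.82e-12), with rank 27 by p. Genes that were called and at least 4-fold higher made up 1.3% of those tested, and the groups were apart in 14.9%. Gc and Slc38a5 were 2 of 7 genes chosen with earlier results of these data known, so these shares do not test the list.

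Slc38a5 was high in every rIAPP library, and the acinar shares of these libraries, 0.288 to 1.15%, all lay above the WT maximum of 0.243%. The rIAPP library with the lowest acinar share, rIAPP 5 at 0.288%, had 34.0 CPM of Slc38a5 and 472 CPM of Gc. The hIAPP library with the highest share, hIAPP 6 at 1.09%, had 5.27 CPM of Slc38a5 and 76.1 CPM of Gc. With the acinar score as a covariate the rIAPP against WT log2 fold changes were 2.52 for Slc38a5 and 2.69 for Gc, and without rIAPP 1 and rIAPP 2 they were 2.67 for both. The cell type in which these transcripts arose was not measured. An acinar part in the differences from WT was not tested and cannot be fully told apart from genotype.

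**Figure D1:**
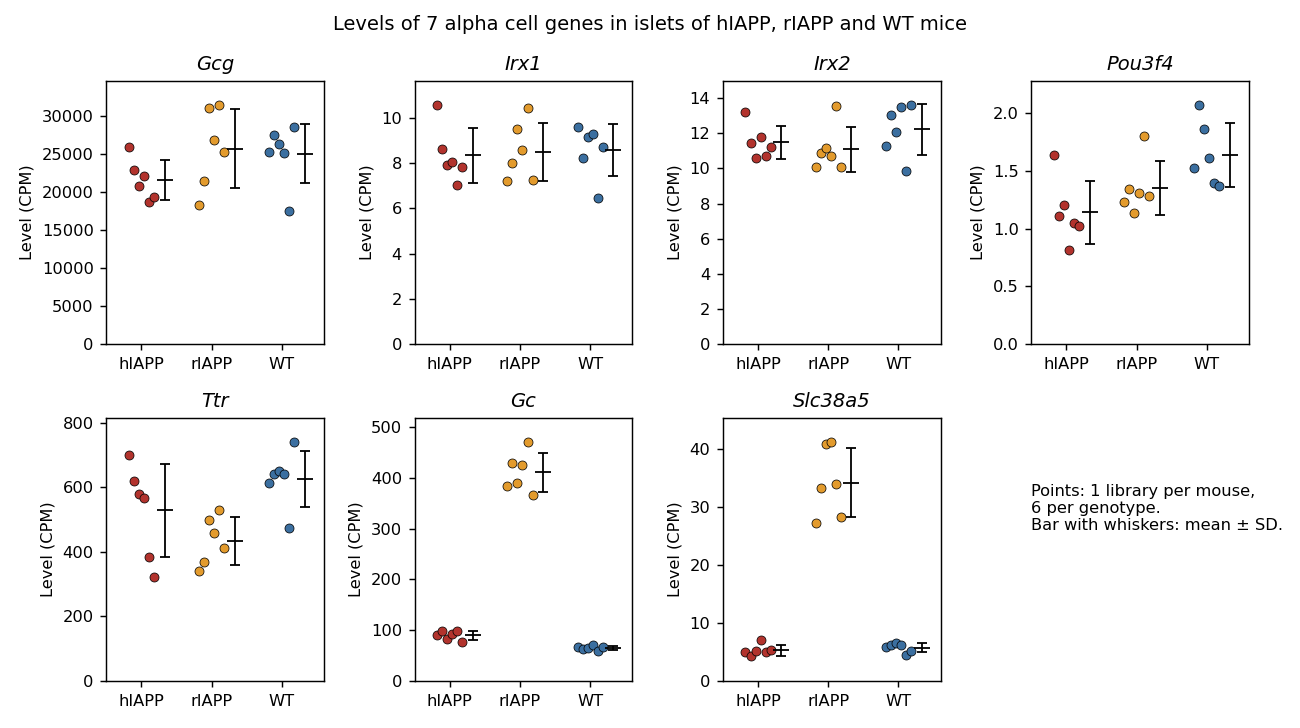
Level in CPM (linear axis from 0) of each of the 7 alpha cell genes, with 1 point for each library, 6 per genotype, and the mean ± SD beside the points. Gc and Slc38a5 in rIAPP islets lie above all other libraries, at 367 to 472 CPM and 27.3 to 41.3 CPM, while the points of Gcg, Irx1 and Irx2 overlap between all 3 genotypes.

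The promoters of Gc and Slc38a5 are shown because these 2 genes rose together, with that of Gcg, which did not pass the test, for comparison. All are from RefSeq on GRCm38.p6, 5′ to 3′ on the strand of the gene, up to the base before the annotated start, with motif matches in capitals. Entries for Gcg, Gc, Irx2, Slc38a5 and Pou3f4 were used, and 130 further upstream bases of Slc38a5 are not shown because exons of its other transcripts lie there. The Gc window is chr5:89457899-89458148 on the minus strand, that of Slc38a5 chrX:8271261-8271380 on the plus strand, and that of Gcg chr2:62483654-62483903 on the minus strand.
Gc: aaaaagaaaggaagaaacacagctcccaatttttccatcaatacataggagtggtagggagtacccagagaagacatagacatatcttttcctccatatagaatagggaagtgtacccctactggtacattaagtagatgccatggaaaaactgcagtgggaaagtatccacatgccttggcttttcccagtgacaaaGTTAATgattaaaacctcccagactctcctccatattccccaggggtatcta
Slc38a5: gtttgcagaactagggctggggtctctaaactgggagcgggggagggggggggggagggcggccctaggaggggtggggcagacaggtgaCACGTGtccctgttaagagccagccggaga
Gcg: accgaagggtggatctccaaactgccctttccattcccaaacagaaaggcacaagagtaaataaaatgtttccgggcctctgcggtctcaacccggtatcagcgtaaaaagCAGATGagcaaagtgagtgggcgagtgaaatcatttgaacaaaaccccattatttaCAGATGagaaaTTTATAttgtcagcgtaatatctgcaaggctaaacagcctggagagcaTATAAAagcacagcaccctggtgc

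In Gc the capitals mark GTTAAT, the core of the binding motif of HNF1, a factor of liver and pancreas, 52 bases before the start. In Slc38a5 they mark the E box CACGTG, 30 bases before the start. In Gcg they mark TATAAA at 24 bases, its reverse complement TTTATA at 72, and the E box CAGATG at 139 and 83 bases before the start. Among 27025 RefSeq mouse promoters of 300 bases, searched on both strands, GTTAAT was found in 7.20%, CACGTG in 7.24%, TATAAA in 14.2% and CAGATG in 17.2%. The windows ran from 250 bases before to 50 after the start.

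The other motifs searched were TAATTA (5.31% of promoters), TGATGCAA (0.929%), TGCTGA (19.1%), TGTTTAC (3.55%), TGACGTCA (1.88%), CAAAGTCCA (0.477%) and TTCNNNGAA (8.47%). TGCTGA had a match 246 bases before the start of Slc38a5, in the stretch not shown, and CAGATG had one in Irx2, 74 bases before its start. No motif was found in both Gc and Slc38a5, and a match is a run of letters and not a bound site.

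Ttr, the carrier of thyroid hormone and of the retinol binding protein, had 341, 434 and 529 CPM as its lowest, median and highest levels in rIAPP islets, against 474, 641 and 741 CPM in WT islets. The ranges overlapped through WT 5, the lowest WT library. The log2 fold change was -0.53 ± 0.16 (SE; edgeR adjusted p = 0.0170). Ttr was no longer called with the acinar score as a covariate (log2 fold change -0.0024, edgeR adjusted p = 0.997). That covariate cannot be fully told apart from genotype in this comparison. The call also ended without rIAPP 1 and rIAPP 2 (-0.39, edgeR adjusted p = 0.123).

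Gcg had 18335, 26082 and 31501 CPM in rIAPP islets, against 17592, 25834 and 28647 CPM in WT islets. The rIAPP libraries lay on both sides of the WT ones. Its log2 fold change was 0.04 ± 0.13, with a 95% interval of -0.24 to 0.31 (edgeR adjusted p = 0.885). Irx1 and Irx2, the paired homeobox genes of the alpha lineage, had log2 fold changes of -0.01 ± 0.11 (adjusted p = 0.951) and -0.14 ± 0.09 (adjusted p = 0.260). Pou3f4, a POU homeobox gene that binds the Gcg promoter, had -0.28 ± 0.16 (adjusted p = 0.228). In bulk islets fewer cells of a type and less RNA per cell cannot be told apart, so these levels are those of the islet and not of the alpha cell.

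In hIAPP islets against WT, Gc rose 1.37-fold, Pou3f4 fell, and the other 5 genes did not pass. These 2 of 7 calls stood against 15.8% of all genes tested. The median log2 fold change of the 7 genes was -0.11, and that of all genes -0.01.

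Gc had 76.1, 92.1 and 98.6 CPM as its lowest, median and highest levels in hIAPP islets, against 59.5, 65.9 and 71.3 CPM in WT islets. All 6 hIAPP libraries exceeded all 6 WT libraries, which 6.63% of genes tested did in either direction. The log2 fold change was 0.45 ± 0.07 (SE; edgeR adjusted p = 2.61e-04), and 0.48 without hIAPP 5 and hIAPP 6.

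Pou3f4 was the least abundant of the 7, with 0.818, 1.08 and 1.64 CPM in hIAPP islets, against 1.37, 1.57 and 2.07 CPM in WT islets. The ranges overlapped through 1 hIAPP library. The log2 fold change was -0.53 ± 0.16 (SE; edgeR adjusted p = 0.0332), and the call rested on few libraries. Leaving out hIAPP 2, 4, 5 or 6 or WT 2, 3 or 4 ended it, with adjusted p of 0.0528 to 0.0860, and with the acinar score as a covariate the value was -0.28 (adjusted p = 0.561).

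Slc38a5 had 4.31, 5.10 and 7.01 CPM in hIAPP islets, against 4.42, 5.98 and 6.62 CPM in WT islets, with a log2 fold change of -0.11 ± 0.12 (adjusted p = 0.627). Gcg had 18736, 21460 and 26010 CPM in hIAPP islets, against 17592, 25834 and 28647 CPM in WT islets. Its log2 fold change was -0.21 ± 0.13, with a 95% interval of -0.49 to 0.07 (adjusted p = 0.321). For Ttr the value was -0.25 ± 0.16 (adjusted p = 0.339), for Irx1 -0.04 ± 0.11 (adjusted p = 0.865) and for Irx2 -0.09 ± 0.09 (adjusted p = 0.548).

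Set against each other, hIAPP islets held less Gc and Slc38a5 than rIAPP islets. The log2 fold changes of hIAPP over rIAPP were -2.19 ± 0.08 for Gc (SE; edgeR adjusted p = 3.51e-14) and -2.69 ± 0.13 for Slc38a5 (adjusted p = 7.65e-12). For both genes the 6 hIAPP libraries lay below the 6 rIAPP libraries, and their ranks by p were 6 and 19. These were 2 of 7 calls where 27.6% of all genes were called and 13.4% had groups that did not overlap. Gcg had a log2 fold change of -0.25 ± 0.13 (adjusted p = 0.183), and -0.41 (adjusted p = 0.0194) without rIAPP 1 and rIAPP 2. Ttr had 0.28 ± 0.16 (adjusted p = 0.205), and 0.50 (adjusted p = 0.00430) without hIAPP 5 and hIAPP 6. Both transgenic genotypes were compared with the same WT libraries, so the fold changes over WT are given side by side and their likeness was not tested.

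**Figure D2:**
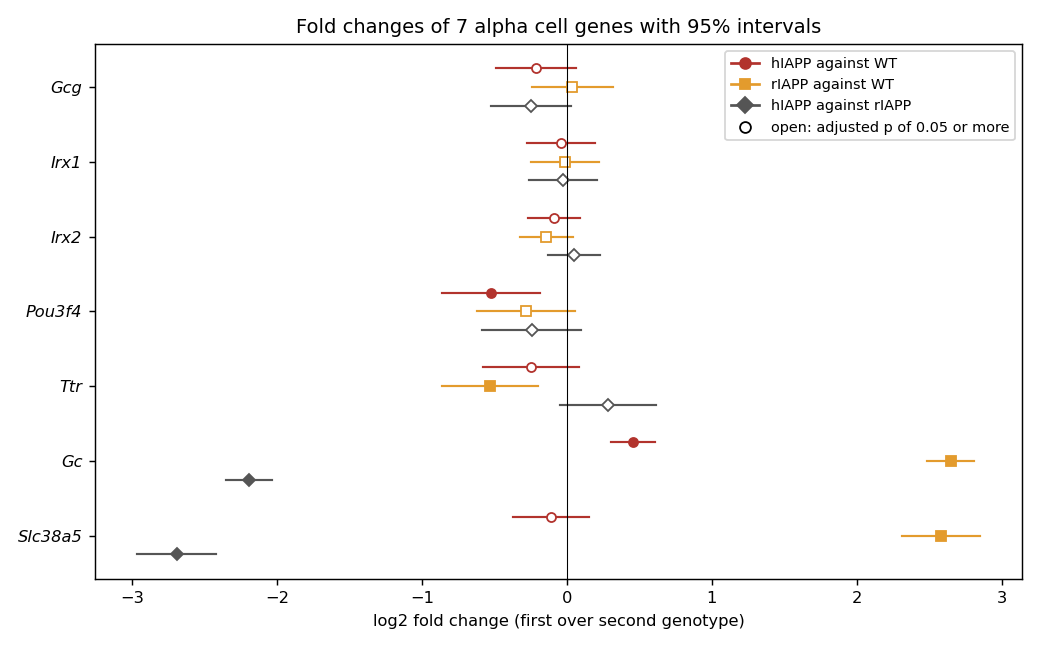
Log2 fold changes (linear axis) with 95% intervals from edgeR of the 7 alpha cell genes in hIAPP against WT, rIAPP against WT and hIAPP against rIAPP, with open symbols at an adjusted p of 0.05 or more. Gc and Slc38a5 lie at 2.65 and 2.58 in rIAPP against WT, and the intervals of Gcg, Irx1 and Irx2 include 0 in all 3 comparisons.

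Ratios within a library do not depend on how libraries are scaled. Per 1000 Gcg counts, rIAPP islets held 16.5 ± 3.29 Gc counts and WT islets 2.67 ± 0.404 (SD, n = 6 each), with no overlap. The hIAPP value, 4.18 ± 0.583, lay between them and overlapped with neither. Slc38a5 had 1.35 ± 0.212 counts per 1000 Gcg counts in rIAPP islets, against 0.230 ± 0.0271 in WT islets, while hIAPP islets had 0.247 ± 0.0504. Ttr had 17.0 ± 0.901 in rIAPP islets, against 25.1 ± 1.30 in WT islets, and here these groups did not overlap. In hIAPP islets the Ttr ratio was 24.1 ± 4.50, with the lowest value, 16.6, in hIAPP 6.

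The ratios of Irx1, Irx2 and Pou3f4 to Gcg overlapped between all pairs of genotypes. Irx1 had 0.384 ± 0.0164 counts per 1000 Gcg counts in hIAPP, 0.335 ± 0.0410 in rIAPP and 0.344 ± 0.0351 in WT. The count of Irx1 per Irx2 count was 0.724 ± 0.0532 in hIAPP, 0.765 ± 0.0528 in rIAPP and 0.704 ± 0.0861 in WT. These 2 genes lie 665 kb apart on chromosome 13.

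**Figure D3:**
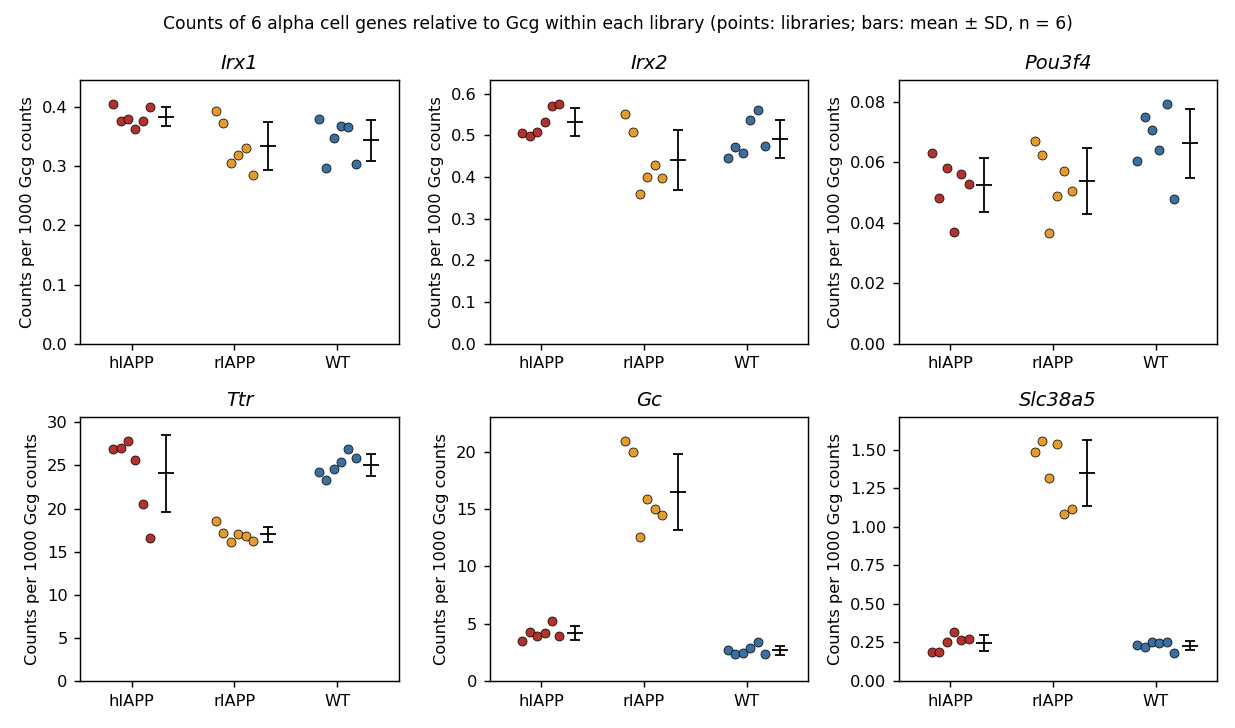
Counts of 6 alpha cell genes per 1000 Gcg counts in the same library (linear axis from 0), with 1 point per library and the mean ± SD. Gc and Slc38a5 are set apart in rIAPP, Ttr is lower in rIAPP than in WT with no overlap, and Irx1, Irx2 and Pou3f4 overlap between all genotypes.

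Glucagon transcript rose relative to insulin transcript in rIAPP islets. The ratio of Gcg to the sum of Ins1 and Ins2 had a lowest, median and highest value of 0.436, 0.465 and 0.686 in rIAPP islets, against 0.184, 0.256 and 0.277 in WT islets. The groups did not overlap, and the difference of the mean log2 ratios was 1.05 (exact two-sided permutation p = 0.00216, which is the lowest possible for groups of 6; 0.0195 after adjustment over 9 tests). Without rIAPP 1 and rIAPP 2 it was 1.13 (exact permutation p adjusted over 9 tests, 0.0571). The groups again did not overlap, and with fewer libraries the lowest possible exact p is higher.

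In hIAPP islets the ratio had 0.245, 0.279 and 0.446, and the difference from WT was 0.26 (exact permutation p = 0.149; adjusted, 0.336). Against rIAPP the hIAPP difference was -0.78 (exact permutation p = 0.00433; adjusted, 0.0195), and 5 of the 6 hIAPP libraries lay below every rIAPP library. Gcg itself did not pass in rIAPP or hIAPP against WT, and Ins1 and Ins2 were lower in rIAPP islets, with log2 fold changes of -1.21 and -0.87 over WT (edgeR adjusted p = 2.93e-05 and 6.77e-05). Ins1 and Ins2 are near-identical copies whose reads can be split between them by the counting. With Ins2 alone the rIAPP against WT difference was 0.91 (adjusted exact permutation p = 0.0195).

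Relative to the other islet hormones Gcg passed no test. Gcg per count of Sst, the somatostatin gene of delta cells, was 17.9 ± 2.97 in hIAPP, 19.7 ± 3.04 in rIAPP and 16.8 ± 2.01 in WT (exact permutation p = 0.476 for hIAPP and 0.0844 for rIAPP against WT). Per count of Ppy, the pancreatic polypeptide gene, it was 13.5 ± 2.32 in hIAPP, 14.3 ± 3.05 in rIAPP and 15.6 ± 5.87 in WT (exact permutation p = 0.574 for hIAPP and 0.810 for rIAPP against WT). Adjusted over the 9 tests the lowest of these p was 0.253.

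**Figure D4:**
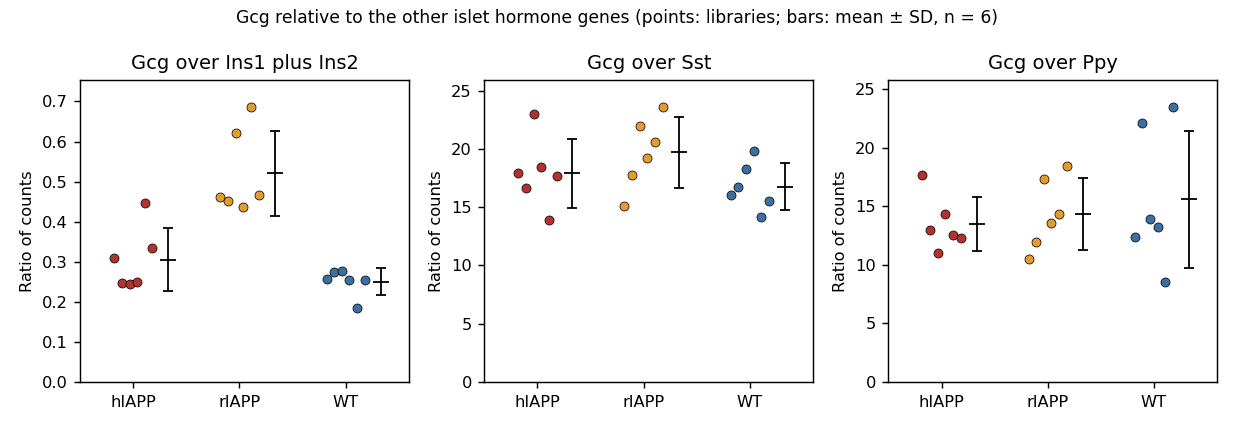
Ratio of Gcg counts to the counts of Ins1 plus Ins2, Sst and Ppy in each library (linear axes from 0), with the mean ± SD of 6 libraries. The 6 rIAPP libraries, at 0.436 to 0.686, exceed all WT libraries, at 0.184 to 0.277, in the ratio to insulin, and the genotypes overlap in the other panels.

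The wider set of alpha cell transcription factors fell in part. Among all genes tested, 26.8% were called in rIAPP against WT and 15.8% in hIAPP against WT. Of the 10 genes of this list, 6 fell in rIAPP and 3 fell in hIAPP against WT. None rose in either at an edgeR adjusted p under 0.05. In hIAPP 1 gene was called higher by DESeq2 and by limma-voom, and Rfx6 was the one with an unadjusted edgeR p under 0.05 (0.0101; adjusted, 0.0592). Most of these factors also act in beta cells, of whose 12 markers 8 fell in hIAPP and 11 in rIAPP, and the part of beta cells in these values was not tested. The median log2 fold change of the list was -0.25 for rIAPP and -0.09 for hIAPP.

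Pax6, a master regulator of endocrine genes that include Gcg, was at 248 ± 15.1 CPM in rIAPP islets, against 305 ± 18.0 CPM in WT islets. The groups did not overlap, and the log2 fold change was -0.30 (edgeR adjusted p = 4.10e-04). Nkx2-2, a homeobox gene of several endocrine cell types, had -0.32 (adjusted p = 1.08e-04).

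Neurod1, Isl1 and Foxa2, which serve several endocrine cell types, fell in both genotypes, though the Foxa2 calls were unsteady. Their log2 fold changes over WT were -0.39, -0.27 and -0.27 in hIAPP and -0.42, -0.27 and -0.23 in rIAPP. With library totals in place of TMM factors all 3 calls in hIAPP ended and those of Isl1 and Foxa2 in rIAPP too, with no sign turned, and the list then had 0 and 3 genes lower. With the acinar score as a covariate the counts lower were 0 in hIAPP and 2 in rIAPP, and Foxa2 in rIAPP turned to 0.03. When each of the 18 libraries was left out in turn, the Foxa2 call ended in 7 runs for hIAPP and 10 for rIAPP, and without hIAPP 5 and hIAPP 6 it ended in hIAPP (-0.18, adjusted p = 0.188). Rfx6 and Insm1 were not called in any comparison, and Foxa1 was near the floor, at 0.0311 CPM in hIAPP, 0.134 CPM in rIAPP and 0.0731 CPM in WT. The hIAPP against rIAPP call of Foxa1 (log2 fold change -2.09) rests on those levels.

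Genes known to be enriched in human alpha cells went in both directions. Of 12, 3 rose and 3 fell in rIAPP against WT, and 2 rose and 3 fell in hIAPP against WT, where 26.8% and 15.8% of all genes tested were called in rIAPP and hIAPP. Slc7a2, the transporter of arginine and other cationic amino acids, was at 126 ± 24.2 CPM in rIAPP islets, against 310 ± 44.9 CPM in WT islets. Its log2 fold change of -1.30 (edgeR adjusted p = 2.95e-08) ran opposite to that of Slc38a5 in the same libraries, and hIAPP islets held 322 ± 28.0 CPM (log2 fold change over WT 0.06, adjusted p = 0.793). In rIAPP 11 of the 12 beta cell markers also fell, with a median of -1.24. A beta cell part in the falls of this list was not tested.

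Tm4sf4, a tetraspanin-like membrane protein gene, had a log2 fold change of -1.03 in rIAPP and -0.27 in hIAPP, where it did not pass (adjusted p = 0.155). Pcsk2, the convertase that cuts proglucagon to glucagon in alpha cells and also acts in beta cells, was at 2531 ± 338 CPM in rIAPP and 3238 ± 334 CPM in hIAPP, against 3996 ± 266 CPM in WT. Both transgenic groups lay below WT with no overlap (log2 fold change -0.66 and -0.30), but without hIAPP 5 and hIAPP 6 the hIAPP value was -0.21 (adjusted p = 0.150). The hIAPP call of Pcsk2 also ended with library totals alone (edgeR adjusted p = 0.1115) and with no filter on low counts (edgeR adjusted p = 0.094). With the acinar score as a covariate the hIAPP value was -0.14 (edgeR adjusted p = 0.587), and 3 of the 18 runs without 1 library ended the call. Aldh1a1, a retinaldehyde dehydrogenase, rose in rIAPP (1.33, adjusted p = 2.98e-04), and with the acinar score as a covariate this was 0.62 (adjusted p = 0.336).

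Fap rose in both genotypes, with log2 fold changes of 1.41 in hIAPP and 0.86 in rIAPP. It lies 17.3 kb from Gcg on chromosome 2 and also marks activated fibroblasts. Of 6 stellate cell markers 5 rose in hIAPP and 4 in rIAPP, where 15.8% and 26.8% of all genes tested were called. A stellate cell part in the Fap value was not tested. Dpp4, 62.3 kb from Gcg on its other side, was not called (-0.23 in hIAPP and -0.12 in rIAPP). Rgs4, a regulator of G protein signalling, fell by 0.23 in hIAPP and rose by 0.28 in rIAPP. The hIAPP call of Rgs4 ended in 11 of the 18 runs without 1 library (edgeR adjusted p up to 0.0982). It also ended without hIAPP 5 and hIAPP 6 (-0.21, edgeR adjusted p = 0.145). Plce1 rose in hIAPP (0.34), and with the acinar score as a covariate this was 0.27 (edgeR adjusted p = 0.186). Cryba2 fell in hIAPP (-0.30), a call that ended without hIAPP 5 and hIAPP 6 (-0.20, edgeR adjusted p = 0.127). The Cryba2 call also ended with library totals alone (adjusted p = 0.113) and with the acinar covariate (adjusted p = 0.431). Smarca1 was not called, and Loxl4 and F10 had means of at most 0.0826 and 0.166 CPM in any genotype.

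**Figure D5:**
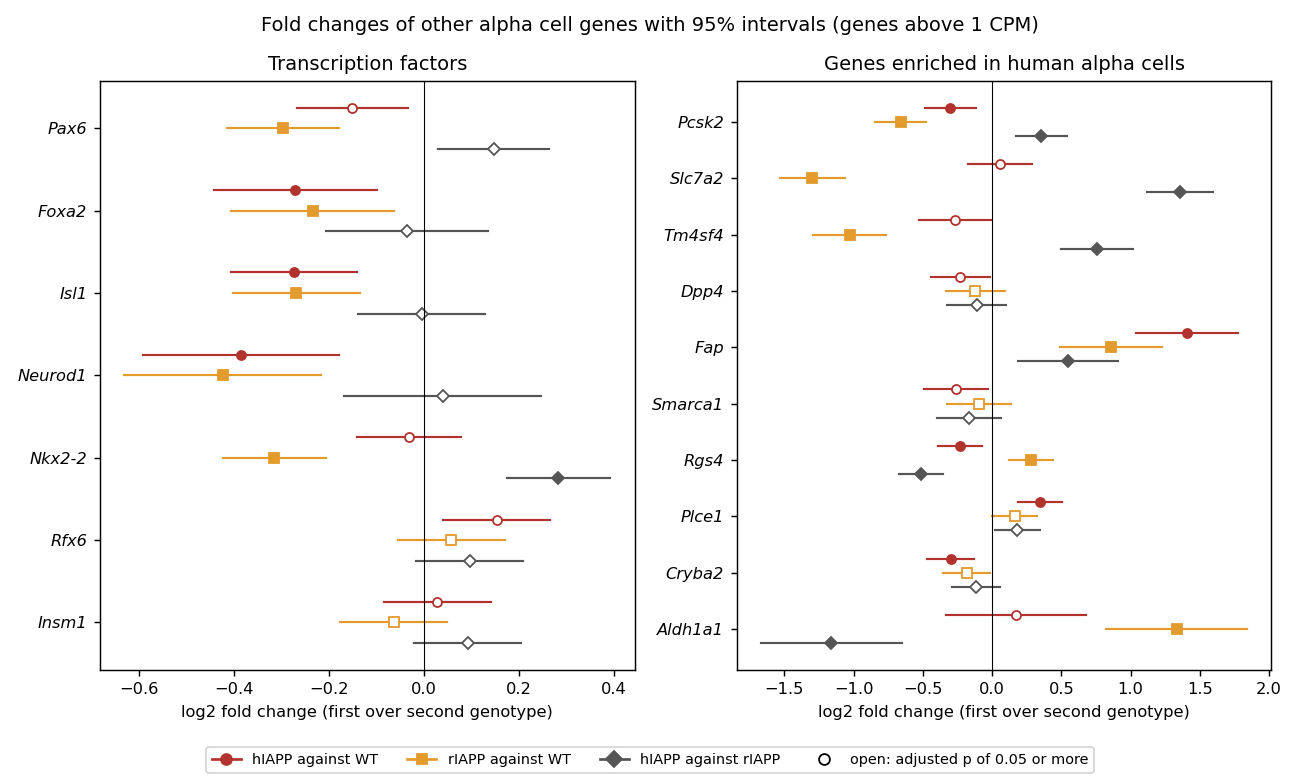
Log2 fold changes with 95% intervals (linear axes of different ranges) of 7 alpha cell transcription factors and 10 genes enriched in human alpha cells, for hIAPP against WT, rIAPP against WT and hIAPP against rIAPP, with open symbols at an adjusted p of 0.05 or more. Slc7a2 lies at -1.30 in rIAPP against WT, and Insm1 is open in all 3 comparisons.

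Receptors that act on glucagon release changed in both genotypes, and no test compared the genotypes over the list. Of 9 genes, 1 rose in rIAPP against WT and Glp1r, Gipr and Gcgr fell, while in hIAPP Insr rose (0.25) and Adrb1 fell (-0.75). That is 4 of 9 where 26.8% of all genes were called in rIAPP, and 2 of 9 where 15.8% were called in hIAPP. The Adrb1 call ended in 6 of the 18 runs without 1 library, and the Insr call ended without hIAPP 5 and hIAPP 6. Gcgr, the glucagon receptor, had 12.0, 16.3 and 18.8 CPM as its lowest, median and highest levels in rIAPP islets, against 18.7, 20.7 and 27.0 CPM in WT islets (log2 fold change -0.46, edgeR adjusted p = 0.00199), and averaged 23.8 ± 2.80 CPM in hIAPP islets. Glp1r, the receptor of the incretin GLP-1, fell most, to 290.3 ± 82.4 CPM in rIAPP islets, against 1151 ± 151 CPM in WT islets (-1.99, adjusted p = 1.71e-08). Gipr had -1.22. Glp1r and Gipr are mainly beta cell receptors in the islet, and 11 of 12 beta cell markers fell in rIAPP with a median of -1.24, so in these bulk values the cell types cannot be told apart.

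Among 12 genes of amino acid uptake, mTOR signalling and alpha cell growth, 2 rose and 2 fell in rIAPP and 4 rose and 1 fell in hIAPP against WT. These 4 of 12 in rIAPP and 5 of 12 in hIAPP stood against 26.8% and 15.8% of all genes. Slc1a5, a glutamine transporter, was at 5.23 ± 0.355 CPM in rIAPP and 4.02 ± 0.544 CPM in hIAPP, against 2.76 ± 0.357 CPM in WT, with log2 fold changes of 0.92 and 0.54 and no overlap with WT. Slc7a5, the large neutral amino acid transporter, rose by 0.35 in rIAPP and 0.46 in hIAPP, and in rIAPP its sign turned with the acinar score as a covariate (-0.05). In hIAPP that covariate ended the calls of Slc7a5 (0.13, adjusted p = 0.677) and Slc1a5 (0.34, adjusted p = 0.161), and 1 gene of the list was then higher. Mtor fell by 0.24 in rIAPP and by 0.14 in hIAPP, and both calls ended with library totals in place of TMM factors. The hIAPP call of Mtor also ended in 13 of the 18 runs without 1 library. Foxp2, a forkhead factor of a family linked to alpha cell proliferation in mice, was at 18.0 ± 1.02 CPM in hIAPP islets. In WT islets Foxp2 was at 9.33 ± 2.25 CPM (hIAPP against WT 0.95, edgeR adjusted p = 4.47e-05). The Foxp2 log2 fold change in rIAPP was 0.33, which did not pass (edgeR adjusted p = 0.0609).

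Few cell cycle genes passed the test. In rIAPP against WT, 1 of 16 rose and 1 fell, where 26.8% of all genes were called. Mcm2, a subunit of the replicative helicase, had a log2 fold change of 0.41 (edgeR adjusted p = 0.00805), and Pcna, the sliding clamp of the polymerase, -0.20 (adjusted p = 0.0401), a call that ended in 10 of the 18 runs without 1 library. The median of the list was -0.40, and it was 0.13 with the acinar score as a covariate.

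In hIAPP against WT edgeR, DESeq2 and limma-voom called none of the 16, where edgeR called 15.8% of all genes. By edgeR 1 of the 16 had an unadjusted p under 0.05, and the median was 0.16. Mki67, the common marker of dividing cells, had 11.2, 21.5 and 41.0 CPM as its lowest, median and highest levels in hIAPP, 10.7, 14.6 and 21.2 CPM in rIAPP and 12.2, 18.4 and 26.8 CPM in WT. The 3 ranges overlapped. For hIAPP against rIAPP Aurkb rose (0.83) and Mcm2 fell (-0.54), with a median of 0.56, where 27.6% of all genes were called. The Aurkb call ended in 11 of the 18 runs without 1 library (adjusted p up to 0.126). The number higher ran from 0 to 7 over those runs, was 0 with library totals alone, with the acinar covariate and without rIAPP 1 and rIAPP 2, and was 6 by limma-voom and 10 without hIAPP 5 and hIAPP 6.

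Most close relatives of the 7 genes were too low to test. Irx4, Irx5, Irx6, Pou3f2, Pou3f3 and Afp did not pass the filter on low counts, which left 5 of 11. Slc38a3, another glutamine transporter of the same family, was at 1.42 ± 0.631 CPM in rIAPP islets, against 0.278 ± 0.137 CPM in WT islets (log2 fold change 2.35, edgeR adjusted p = 1.48e-04), and 0.40 (adjusted p = 0.574) with the acinar score as a covariate. In hIAPP it was at 0.666 ± 0.382 CPM (1.26, adjusted p = 0.0356), a sign that turned with that covariate (-0.25). The hIAPP call of Slc38a3 also ended in 7 of the 18 runs without 1 library (edgeR adjusted p up to 0.108).

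Alb, the albumin gene, of the same gene family as Gc, was at 5.36 ± 1.78 CPM in rIAPP and 0.903 ± 0.331 CPM in hIAPP, against 2.75 ± 0.639 CPM in WT. Its log2 fold changes over WT were 0.96 in rIAPP and -1.60 in hIAPP, so that in hIAPP it fell where Gc rose. The 10 hepatocyte markers, Alb among them, summed to 0.00297% of counts in hIAPP, 0.00224% in rIAPP and 0.00172% in WT. Most of that sum was Tat, tyrosine aminotransferase, at 24.3 CPM in hIAPP, 11.0 CPM in rIAPP and 12.9 CPM in WT. Irx3 rose in rIAPP (0.70), a call that held in 24 of 29 alternative settings. It ended in 3 of the 18 runs without 1 library (edgeR adjusted p up to 0.069). Pou3f1 and Slc38a1 were not called against WT.

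The 7 genes lie on 5 chromosomes. On GRCm38 they are Gcg at 62474530 to 62483650 of chromosome 2 (minus strand), Gc at 89417522 to 89457898 of chromosome 5 (minus), Irx1 at 71957921 to 71963723 (minus) and Irx2 at 72628820 to 72634198 (plus) of chromosome 13, Ttr at 20665280 to 20674321 of chromosome 18 (plus), and Slc38a5 at 8271133 to 8280179 (plus) and Pou3f4 at 110814280 to 110817207 (plus) of the X chromosome. In GENCODE M21 no other gene overlaps any of them. The nearest tested genes with a proper name beside Slc38a5 and Gc, chosen for their position, were Ftsj1 and Slc4a4. Ftsj1, 18.7 kb from Slc38a5, had a log2 fold change of 0.10 in rIAPP against WT (edgeR adjusted p = 0.214), and Slc4a4, 178 kb from Gc, had 0.66 (adjusted p = 4.12e-05).

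Within genotypes the 7 genes did not all vary together. After each genotype's mean was subtracted, log2 CPM of Gcg over the 18 libraries had a Pearson r of 0.834 with Irx1, 0.815 with Ttr and 0.774 with Irx2, which ranked 40, 80 and 211 of 14121 genes. With Slc38a5 the r was 0.487, with Pou3f4 0.405 and with Gc 0.392. Spearman's rho was 0.820, 0.853, 0.789, 0.385, 0.300 and 0.317 for Irx1, Ttr, Irx2, Slc38a5, Pou3f4 and Gc. Without the 2 libraries farthest from the median of Gcg the r was 0.748, 0.808, 0.674, 0.134, 0.346 and 0.199 for the same genes in that order. Gc and Slc38a5, which both rose in rIAPP, had an r of 0.206 with each other within genotypes.

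The 5 genes most like Gcg by this measure were Sgce (0.910), Armc10 (0.899), Calm3 (0.894), Ube2q1 (0.893) and Gnas (0.878). The values share libraries, depth and the mix of cells in each islet preparation, and are a description only.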

How the data were processed

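Islet RNA of 18 mice was extracted with RNeasy columns and prepared with TruSeq kits, with ribosomal RNA removed by Ribo-Zero, per the labels' protocols. The deposited values are estimated counts per gene symbol, not normalised; STAR and HTSeq, and the builds GRCm38 and mm10, come from the submitters' processing notes, which give no version. The step that gave fractional counts (182064 values, 39.2% of those above 0) and the use of strand were not found in the labels. Unused sample columns numbered 0.

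Counts were rounded, filtered with filterByExpr, scaled by TMM and tested with edgeR 4.0.16 (R 4.3.3; quasi-likelihood, 18 libraries in 1 fit with a mean per genotype, Benjamini-Hochberg adjustment over 20244 genes, threshold 0.05). CPM are counts over the TMM-scaled library total, and log2 CPM for likeness used a prior count of 2 and genes with a mean of at least 1 CPM. DESeq2 1.42.0 and limma 3.58.1 (voom) were alternatives. Hormone ratios were tested on the log2 scale by exact two-sided permutation (Python 3.11.15, scipy 1.17.1). The fits were tested on simulated data with known fold changes. Exon lengths and positions came from GENCODE M21.

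The 7 genes and all lists were chosen with earlier results of these data known. The text names all 7 genes, every gene of the alpha cell transcription factor and human alpha cell lists, up to 4 genes with the smallest p per comparison from the receptor, amino acid, cell cycle and relatives lists, the most abundant markers of other cells, Iapp and the 5 genes most like Gcg. Ftsj1 and Slc4a4 were chosen for their position, some list genes are counted but not reported by name here, and the 6 untested relatives are named as a count's members. Each mouse gave 1 library, so replicates are mice. Library totals limit precision for genes near 1 CPM, where Pou3f4 lay; intervals cover the spread between these libraries. Alternatives were other scaling, filters, tools, samples in the fit, an acinar covariate, removal of hIAPP 5 and 6 or, added after the data were seen, rIAPP 1 and 2, and of each library in turn.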

Additional observations from a re-analysis of the deposited data

Results flagged for a closer look

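In 5 of 30 groups of 6 libraries, 1 library stood apart from the other 5 by its gap to the nearest value relative to the range of the group, a distance that chance gives in about 1 in 20 groups. In WT 5 the Gcg level was 17592 CPM, where the other WT libraries had 25150 to 28647 CPM, and its ratio of Gcg to Ins1 plus Ins2 was 0.184, where the others had 0.254 to 0.277. In rIAPP 5 Irx2 was at 13.5 CPM, where the other rIAPP libraries had 10.1 to 11.2 CPM, and Pou3f4 was at 1.80 CPM, where the others had 1.13 to 1.34 CPM. In hIAPP 4 Slc38a5 was at 7.01 CPM, where the other hIAPP libraries had 4.31 to 5.27 CPM. No cause was tested.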

How the results depend on the processing

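The rises of Gc and Slc38a5 in rIAPP over WT kept their call in all 29 alternatives, with log2 fold changes of 2.61 to 2.77 and 2.52 to 2.69, as did Gc in hIAPP over WT (0.42 to 0.57). The number of the 7 genes called in hIAPP against WT, 2 in the fit reported, was 1 with library totals alone, with no filter on low counts, with only the 2 genotypes compared, with the acinar score as a covariate and without hIAPP 5 and hIAPP 6, and 1 to 2 when each library was left out in turn. The gene lost was Pou3f4, with log2 fold changes of -0.42, -0.53, -0.52, -0.28 and -0.46 in those settings.

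Signs turned for values that were not called, and for Slc38a3, Foxa2 and Slc7a5, which were; the cause was not tested. With library totals alone, which move the median of all genes by 0.11 in hIAPP and 0.10 in rIAPP against WT, hIAPP against WT was 0.068 for Irx1, 0.0225 for Irx2 and 0.0091 for Slc38a5, and rIAPP against WT was 0.11 for Irx1. With the acinar covariate hIAPP against WT was 0.0229 for Gcg, 0.15 for Irx1, 0.12 for Ttr and -0.25 for Slc38a3, a gene called in the fit reported. With it rIAPP against WT was 0.24 for Irx1, 0.0688 for Pou3f4, 0.0269 for Foxa2 and -0.0517 for Slc7a5, of which Foxa2 and Slc7a5 were called in the fit reported. For rIAPP against WT Irx1 was 0.0005 with a filter of 1 CPM in 6 libraries and 0.001 without the 10 most abundant genes, which leave no value for Gcg. Without hIAPP 5 and hIAPP 6 Irx1 in hIAPP was 0.0421 against WT and 0.0483 against rIAPP. Without rIAPP 1 and rIAPP 2, for rIAPP against WT, Irx1 was 0.0728 and the log2 difference in Gcg over Ppy 0.10. That of Gcg over insulin was then 1.13, and -0.87 for hIAPP against rIAPP (adjusted p 0.0571 each), while Gcg in hIAPP against rIAPP passed at -0.41.

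When each library was left out in turn, Irx1 had -0.12 to 0.0105 in hIAPP against WT, -0.0838 to 0.0361 in rIAPP against WT and -0.11 to 0.037 in hIAPP against rIAPP. Gcg in rIAPP against WT had -0.0479 to 0.12, and Gcg over Ppy had -0.22 to 0.0727. In hIAPP against WT 3208 genes were called, with 725 under the acinar covariate and 1675 without hIAPP 5 and hIAPP 6. In rIAPP against WT 5417 were called, with 1965 under the covariate. The acinar shares of rIAPP and WT libraries did not overlap, so there the covariate and genotype cannot be fully told apart. No paired analysis was possible because the replicate numbers follow accession order and pair no mice.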

Other observations

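Within genotypes, Slc38a5 varied with the mean log2 CPM of the 16 cell cycle genes, with a Pearson r of 0.702 and a Spearman rho of 0.723 over 18 libraries, and an r of 0.720 without the 2 libraries farthest from the median. The r of the other 6 alpha cell genes with the same mean ran from 0.157 for Pou3f4 to 0.556 for Ttr. The values share libraries, depth and cell mix, were looked at after the data were seen, and are given as a description.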
